A study of Mus musculus with 8 samples.

Results

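Mitochondrial DNA carries 37 genes, which encode 13 mRNAs for subunits of the respiratory chain and ATP synthase, 2 rRNAs and 22 tRNAs. All CAGE tag clusters on the mitochondrial chromosome (chrM) were taken from the deposited clusters of each cell line, and each cluster was assigned to a gene by its dominant TSS, the base with the most 5' ends in it. E14 had 115 such clusters of 32857 in all, *Pwwp2a/b* DKO clone A1 had 116 of 33005 and clone C7 had 116 of 32870. E14 is a wild-type mouse embryonic stem cell (mESC) line, and A1 and C7 are separate clones made from it with the genotype label double PWWP2A/B knockout. All 3 lines carried the cell type label embryonic stem cell, and their medium contained serum and LIF. Each clone is a single derived line, so an effect of the knockout seen in a single clone cannot be told apart from a difference particular to that clone. E14 is the sole wild-type line, so a difference shared by both clones cannot be told apart from one particular to E14.

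Mitochondrial DNA is transcribed by its own RNA polymerase, POLRMT, with TFAM and TFB2M, from promoters in the D-loop, the noncoding control region. Transcription from each strand gives long RNAs that span many genes. In these RNAs most rRNAs and mRNAs are flanked by tRNAs, and RNase P and ELAC2 release them by cutting at the ends of the tRNAs. The 5' end of most mature mitochondrial RNAs is therefore made by cleavage, and these RNAs lack the 7-methylguanosine cap that RNA polymerase II transcripts carry and that CAGE captures. The plus strand of the reference carries the sense of 28 genes, among them both rRNAs and 12 mRNAs, and is copied from the heavy strand. The minus strand carries the sense of mt-Nd6 and 8 tRNAs and is copied from the light strand.

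The libraries were made from nuclear RNA, 3 from E14, 2 from A1 and 3 from C7, and the deposited clusters merge the libraries of a line. There was therefore 1 set of positions per line, no spread between replicates could be measured, and no test between lines was made. The clusters carry no expression value or depth, so what follows concerns where 5' ends lay and not how many there were. Promoter clusters were present in each line at 6 of 6 pluripotency genes (Pou5f1, Sox2, Nanog, Esrrb, Klf4 and Zfp42). Of 6 lineage genes, Sox17 had a promoter cluster in each line and Gata4, Gata6, T, Pax6 and Cdx2 had none.

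At 7 of the mitochondrial genes the dominant TSS lay within 2 bases of the annotated gene start at the same base in all 3 lines. The stretches around 6 of these starts are shown because they place the CAGE 5' end against the first base of the RNA. They were read from GENCODE M21 transcripts on GRCm38, the assembly mm10 is built from, 5' to 3' on the strand of the gene, with the dominant TSS in capitals. They lie at chrM:70-84 for mt-Rnr1, chrM:2742-2766 for mt-Nd1, chrM:3904-3928 for mt-Nd2, chrM:11733-11757 for mt-Nd5, chrM:14055-14079 for mt-Nd6 on the minus strand and chrM:14145-14160 for mt-Cytb.
mt-Rnr1: Aaaggtttggtcctg
mt-Nd1: tccctaatagTgttctttattaata
mt-Nd2: tcccgtactaAtaaatcctatcacc
mt-Nd5: ataaaagtaaTcaatattttcacaa
mt-Nd6: gtagaaataaTgaataattatattt
mt-Cytb: aTgacaaacatacgaa
In mt-Nd1, mt-Nd5, mt-Nd6 and mt-Cytb the capital is the second base of the gene, which is the second base of its start codon. In mt-Rnr1 and mt-Nd2 it is the first base of the gene.

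mt-Rnr1, the 12S rRNA of the small mitochondrial ribosomal subunit, starts at base 70 of chrM, and its dominant TSS was at base 70 in E14, A1 and C7. The interquantile region is the stretch between the 0.1 and 0.9 quantiles of the 5' ends of a cluster. In mt-Rnr1 this region began at base 70 as well and ran for 529 bp in E14 and A1 and 506 bp in C7, so 5' ends were spread far into the gene from its first base onwards. The cluster itself spanned bases 38 to 786.

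Among the complex I subunits, mt-Nd1 had its dominant TSS at base 2752 and mt-Nd2 at base 3914 in every line. mt-Nd5 had it at base 11743. mt-Nd6, the 1 mRNA of the minus strand, had it at base 14069. The E14 interquantile region began at the first base of mt-Nd1, mt-Nd2 and mt-Nd5 and at the second base of mt-Nd6. It ran for 304 bp in mt-Nd1 (304 in A1, 305 in C7), 504 bp in mt-Nd2 in all 3 lines, 68 bp in mt-Nd5 (68 in A1, 64 in C7) and 719 bp in mt-Nd6 (708 in A1, 684 in C7). In E14 the region of all 4 genes therefore opened at the gene start or the base after it and extended downstream, and in C7 that of mt-Nd1 opened 1 base earlier, at base 2750.

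mt-Cytb, the complex III subunit, had its dominant TSS at base 14146 and an interquantile region of 22 bp in every line. mt-Co1, the catalytic subunit of complex IV, had its dominant TSS at base 5326, 2 bases before the annotated start, and a region of 269 bp in every line. The base before the mt-Co1 start is not covered by the transcript sequences used, so no stretch is shown for it.

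Of the tRNAs, mt-Ta, the alanine tRNA on the minus strand, had a 3 bp cluster whose dominant TSS was 2 bases before the start in E14 (base 5088) and 1 base before it in both clones (base 5087). This cluster also lies just behind mt-Tn on the same strand, whose 3' end is base 5089. mt-Tf and mt-Tl1, the tRNAs that precede mt-Rnr1 and mt-Nd1, had a dominant TSS 10 bases after their start, at bases 11 and 2686, in all 3 lines. The nearest to mt-Te, the glutamate tRNA next to mt-Nd6, lay 17 bases before its start in E14 and C7 and 15 bases before it in A1. No other tRNA had a dominant TSS within 10 bases of its start. The tRNA genes are 59 to 75 bases long, and reads were aligned over 77 bases. A read of a mature tRNA alone could therefore not be aligned over its full length, and its 5' end was hardly measurable.

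In E14, 8 of 115 clusters (6.96%, 95% Wilson interval 3.57 to 13.1, counting error only) had their dominant TSS within 2 bases of a start of a gene of their strand, and 0.561% of all positions lie in such windows. Within the bases the clusters cover, the windows took up 0.417%. With a window of 10 bases there were 10 clusters (8.70%, 4.79 to 15.3), against 2.35% of positions. On the plus strand 6 of 51 clusters (11.8%) lay within 2 bases of a start, and on the minus strand 2 of 64 (3.13%). The counts were the same in A1 and C7. In 9 of the 10 clusters the 5' end of the E14 interquantile region lay within 2 bases of the gene start, and in 6 of the 10 it was the dominant TSS itself. All 6 mRNAs with a start outside the empty stretch described further on had such a cluster.

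**Figure D1:**
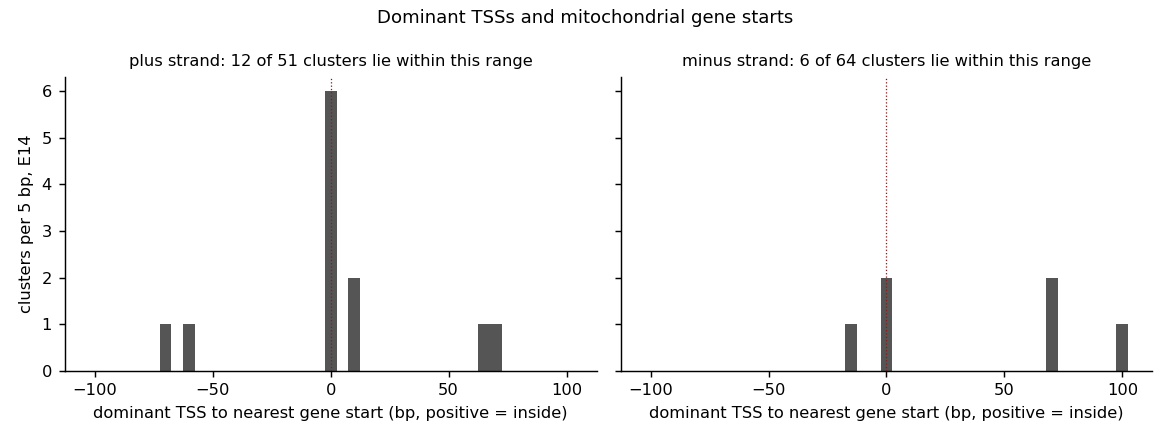
Number of E14 clusters (vertical axis, per 5 bp) by the distance in bp from their dominant TSS to the nearest gene start on the same strand, for the plus strand (left) and the minus strand (right); only distances up to 100 bp are drawn. The bar at 0 holds 6 plus-strand and 2 minus-strand clusters.

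The bases at the dominant TSSs of mitochondrial clusters differed from those at nuclear promoters. RNA polymerase II mostly starts at a purine that follows a pyrimidine. At E14 dominant TSSs inside RefSeq promoter windows of nuclear genes, this step was found in 82.3% of 4174 clusters on the plus strand and 81.9% of 4090 on the minus strand. A shift of the positions by 1 base in either direction left from 1.51% to 2.96%, so the step was seen at the deposited base itself. On chrM, 5 of 49 plus-strand clusters (10.2%) and 1 of 58 minus-strand clusters (1.72%) had the step, while 23.7% of all chrM positions with sequence have it on either strand. The shares in the clones were 8.16% and 1.69% in A1 and 10.2% and 1.69% in C7. The step was thus present at most nuclear promoter TSSs and at few mitochondrial ones in every line.

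The base before the mitochondrial dominant TSS was most often G. In E14 it was G in 25 of 49 plus-strand clusters (51.0%) and 33 of 58 minus-strand clusters (56.9%), whereas G makes up 12.4% of plus-strand bases and 24.4% of minus-strand bases. The dominant TSS itself was T in 34.7% of plus-strand and 37.9% of minus-strand clusters, against 28.7% and 34.6% of T among all bases. It was A in 24.5% and 12.1%, below the 34.6% and 28.7% of A among all bases. C and G were above their shares of all bases on both strands. CAGE reads can begin with a G that is added opposite the cap during reverse transcription, and CAGEr has a step that removes such bases. How that step was set is not stated in the sources used here. Its part in the G before the TSS, and in the low share of purines after a pyrimidine, was not tested.

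Sense clusters lay in 11 of the 37 genes in each line, in 7 of 13 mRNAs, 2 of 2 rRNAs and 2 of 22 tRNAs (mt-Tf and mt-Tl1). The count for tRNAs is limited by their length, which is below that of the aligned reads. On the plus strand, 38 of the 51 clusters were sense to an mRNA, 3 to an rRNA and 2 to a tRNA, and 8 lay opposite a gene of the minus strand. The 8 include the cluster at the start of mt-Co1, from base 5324 to base 5636, because its dominant TSS falls opposite mt-Ty. On the minus strand, 58 of the 64 E14 clusters and 59 of the 65 in each clone lay opposite a gene, 1 was sense to mt-Nd6, 4 lay in the D-loop and 1 between genes. Taken over both strands, 44 of the 115 E14 clusters (38.3%, 29.9 to 47.4) were sense to a gene and 66 (57.4%, 48.3 to 66.0) opposite to one. Most clusters by count were therefore on the strand that does not carry the gene, and nearly all of these were on the minus strand. Genes of the plus strand span 14317 bases and those of the minus strand 1068, so most minus-strand positions lie opposite a gene. Whether the count opposite genes exceeds what this layout gives was not tested. By bases, E14 clusters covered 45.7% of the plus strand and 23.4% of the minus strand.

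**Figure D2:**
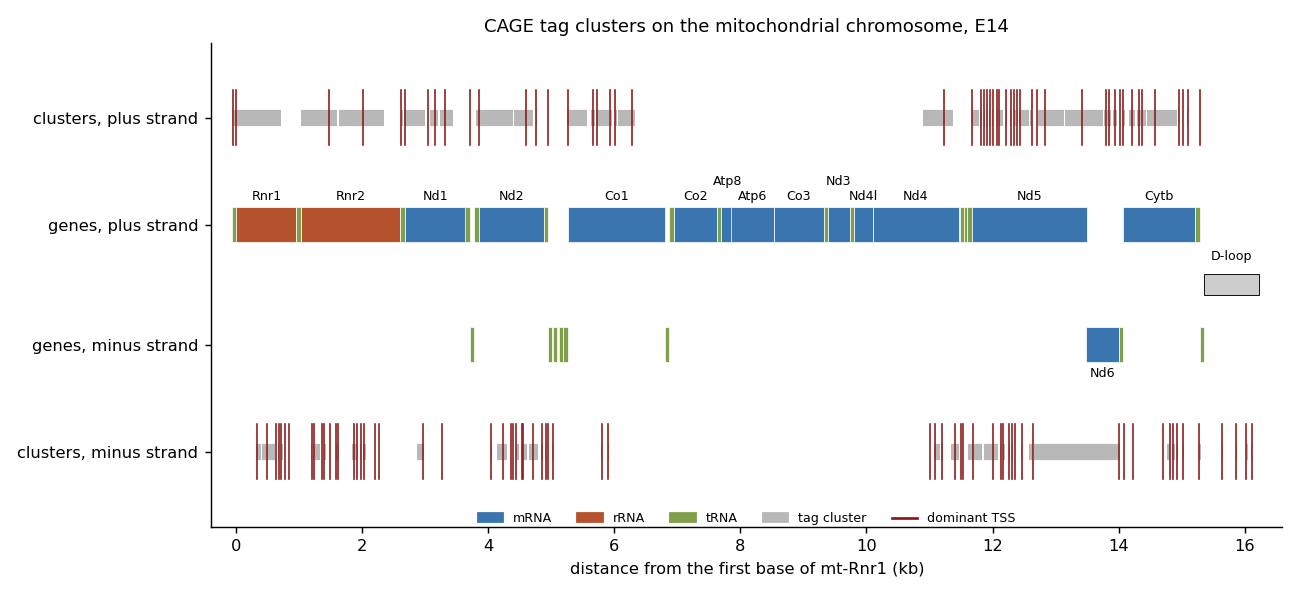
Tag clusters (grey) and their dominant TSSs (red lines) in E14 on the plus strand (top) and minus strand (bottom), with the genes of each strand and the D-loop between them, along the distance in kb from the first base of mt-Rnr1. Both strands are empty from mt-Co2 to mt-Nd4l, and the D-loop holds clusters only on the minus strand.

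Both rRNA genes were covered by few, wide sense clusters. The 1 sense cluster of mt-Rnr1 covered 75.1% of its bases. The 2 of mt-Rnr2, the 16S rRNA of the large subunit, covered 81.9% of its bases, and their dominant TSSs lay inside the gene at bases 1537 and 2085 in all 3 lines. mt-Rnr2 starts at base 1094 and was the rRNA without a dominant TSS at its start. The clusters opposite the rRNA genes were more numerous and short. There were 7 opposite mt-Rnr1, covering 35.2% of it, and 13 opposite mt-Rnr2, covering 21.8%.

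The complex I genes that lie at least partly outside the empty stretch ranged widely in number and cover of clusters. In E14, mt-Nd1 had 4 sense clusters over 67.9% of its bases and mt-Nd2 had 3 over 81.9%. mt-Nd5 had 17 sense clusters, the most of any mitochondrial gene, over 69.7% of its bases. mt-Nd6 lay wholly inside 1 cluster (100%), which ran from base 12732 to base 14089 and so reached into mt-Te on the 5' side and past the 3' end of mt-Nd6 to lie opposite mt-Nd5. mt-Nd4 had 1 sense cluster, from base 10969 to base 11443 with its dominant TSS at base 11299, over 34.5% of its bases.

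mt-Co1 had 5 sense clusters by their dominant TSS, besides the cluster that opens 2 bases before it, and 57.5% of its bases were covered. Its bases from 6393 to its end at 6872 lie in the empty stretch. mt-Cytb had 8 over 63.7% of its bases. Opposite these 2 genes, clusters covered 2.14% of mt-Co1 and 10.9% of mt-Cytb. Among the rRNAs and mRNAs, the opposite strand was covered most at the neighbours mt-Nd6 (77.6%) and mt-Nd5 (77.4%), followed by mt-Nd2 (45.0%). Cover of the sense strand was thus above that of the opposite strand at both rRNAs and at every mRNA with clusters except mt-Nd5.

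**Figure D3:**
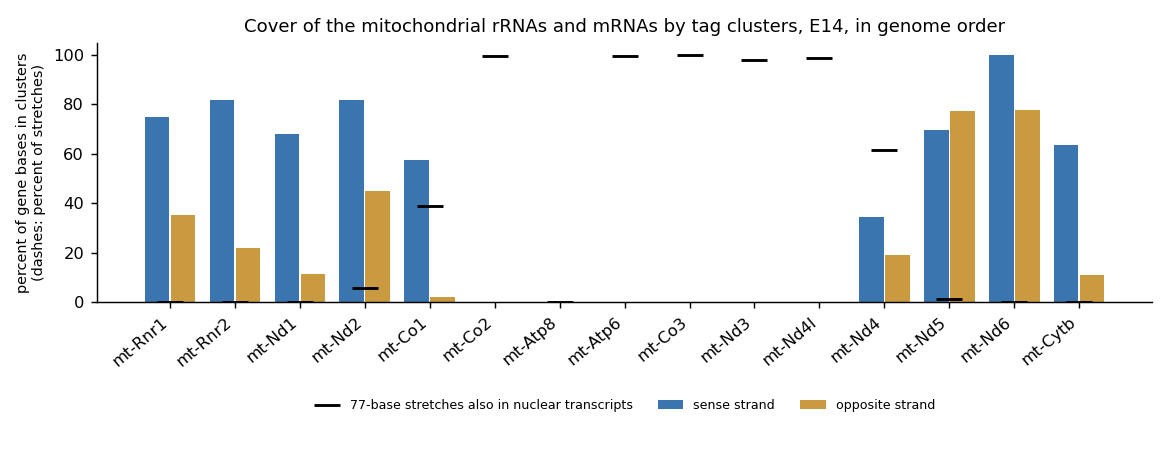
Percent of the bases of each mitochondrial rRNA and mRNA that lie inside E14 tag clusters on its sense strand (blue) and opposite strand (ochre), in genome order, with the percent of its 77-base stretches that also occur in nuclear transcripts (black dashes). The 5 genes with dashes above 90% have no cluster on either strand, and mt-Atp8 has neither clusters nor such stretches.

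A single stretch of 4576 bp, from base 6393 to base 10968, held no cluster on either strand in any line. It contains 11 whole genes, namely the complex IV subunits mt-Co2 and mt-Co3, the ATP synthase subunits mt-Atp8 and mt-Atp6, the complex I subunits mt-Nd3 and mt-Nd4l, and 5 tRNAs (mt-Ts1, mt-Td, mt-Tk, mt-Tg and mt-Tr). All 6 mRNAs without a sense cluster lie in it. The next longest stretch without a cluster on either strand was 336 bp.

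Much of the empty stretch has close copies among annotated nuclear transcripts. GENCODE M21 lists 7 pseudogenes on chromosome 1 from 24611535 to 24616197, each matching a mitochondrial gene between bases 6390 and 11042 of chrM at 99.7% identity or more, and 5 of them without a difference. Reads were aligned over 77 bases, after the 3-base barcode was taken from 80-base reads, and only reads with a single place in the genome were kept. Of all 77-base stretches of each gene, 99.5% of mt-Co2, 99.5% of mt-Atp6, 99.9% of mt-Co3, 97.8% of mt-Nd3 and 98.6% of mt-Nd4l occur in a nuclear transcript, and these 5 genes had no sense cluster in any line. Of 8 genes with under 10% of such stretches, 7 had sense clusters in every line. The exception was mt-Atp8, at 0%, which lies in the empty stretch. The search covered annotated nuclear transcripts and not the nuclear genome, and the 5 tRNAs of the stretch, shorter than 77 bases, were not searched. mt-Nd4 (61.4%) and mt-Co1 (38.9%) lie across the edges of the matching sequence. The last plus-strand cluster of mt-Co1 ended at base 6392, 3 bases into it, and the mt-Nd4 cluster began at base 10969. Reads that fit more than 1 place equally well were not kept, so 5' ends over most of the 5 genes above 90% could not be measured. At base 3 of mt-Nd3 the nuclear copy differs from the gene, so a read over that base can have a single best place. Whether that place is on chrM or chromosome 1 depends on the base the read carries, which was not examined. Whether reads from mt-Atp8 and the tRNAs of the stretch fit more than 1 place was not tested.

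In the stretch of chromosome 1 that holds the nuclear copies, 4 clusters were present in each line. The copy of mt-Nd3, Gm28438, lies on the minus strand from 24612775 to 24613119 and had a minus-strand cluster from 24613118 to 24613119, with its dominant TSS at 24613118 in all 3 lines. That base matches base 9460 of chrM, the second base of mt-Nd3. It is the offset that was also seen at mt-Nd1, mt-Nd5, mt-Nd6 and mt-Cytb. Over 345 compared bases the copy differs from mt-Nd3 in the reference at 1 base, which is the third base of the gene. Whether the reads of this minus-strand cluster came from the copy or from mt-Nd3 itself was not tested. The other 3 clusters lay on the plus strand, which does not carry the copies. Their dominant TSSs were at 24612691 in the copy of mt-Nd4l (Gm10222), at 24612736 between copies and at 24613050 in the copy of mt-Nd3, the same base in every line. No cluster lay at the 3 pseudogenes on chromosome 2 or the 1 on chromosome 13 that match mt-Nd2, mt-Co1, mt-Co2 and mt-Nd5 at 95% identity or more.

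The D-loop, 877 bp from base 15423 to the end of chrM, held 4 clusters on the minus strand and none on the plus strand in each line. Their dominant TSSs were at bases 15712, 15929, 16093 and 16187, the same in all 3 lines. The cluster nearest the end, from base 16169 to base 16190, had an interquantile region of 2 bp in every line, while that at base 16093 spanned 10 bp in E14 and A1 and 29 bp in C7. The plus strand was empty for 931 bp up to the end of the chromosome, and its first cluster on the other side of the junction lay at bases 2 to 11, in mt-Tf. Because chrM is circular but was aligned as a line, a plus-strand read that starts in the last 76 bases, from base 16224 on, runs off the end and could not be aligned over its full length. Plus-strand 5' ends there were not measured. D-loop sequence was not analysed here.

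A pair of clusters lay at the junction of mt-Tt and mt-Tp, the tRNA genes next to the D-loop. The plus-strand cluster from base 15356 to base 15368 had its dominant TSS at base 15356, which is the base after the 3' end of mt-Tt and lies opposite mt-Tp. The minus-strand cluster from base 15353 to base 15375 had its dominant TSS at base 15353, 3 bases past the 3' end of mt-Tp. Each therefore had its main 5' end close behind the end of a tRNA on its own strand, in all 3 lines. This was not particular to the junction. A like pair lay at mt-Tw, which ends at base 5016, and mt-Ta, whose 3' end is base 5018. Its dominant TSSs were at base 5018 on the plus strand and base 5016 on the minus strand in every line. Behind mt-Ti, which ends at base 3774, a plus-strand dominant TSS lay at base 3776.

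Mitochondrial clusters were more often very wide than nuclear ones. The interquantile width was over 100 bp in 21 of 115 clusters in E14 (18.3%), 20 of 116 in A1 (17.2%) and 19 of 116 in C7 (16.4%), and in 0.476%, 0.505% and 0.507% of nuclear clusters. Of the 10 widest regions of each whole track, 6 were mitochondrial. They were the clusters of mt-Nd6, mt-Rnr1 and mt-Nd2 that open at the gene start, both clusters of mt-Rnr2 (496 bp and 432 bp in E14) and a cluster of mt-Nd5 from base 13219 to base 13816 (396 bp). The median was not as far apart. It was 18 bp in E14, 17.5 bp in A1 and 18 bp in C7 on chrM, 20, 21 and 21 bp at nuclear promoters and 3 bp in nuclear exons and introns in every line. On the plus strand of chrM the medians were 26, 25 and 24 bp, and on the minus strand 15, 14 and 15 bp. Regions of 2 bp or less made up 12.2% of mitochondrial and 19.5% of nuclear clusters in E14.

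**Figure D4:**
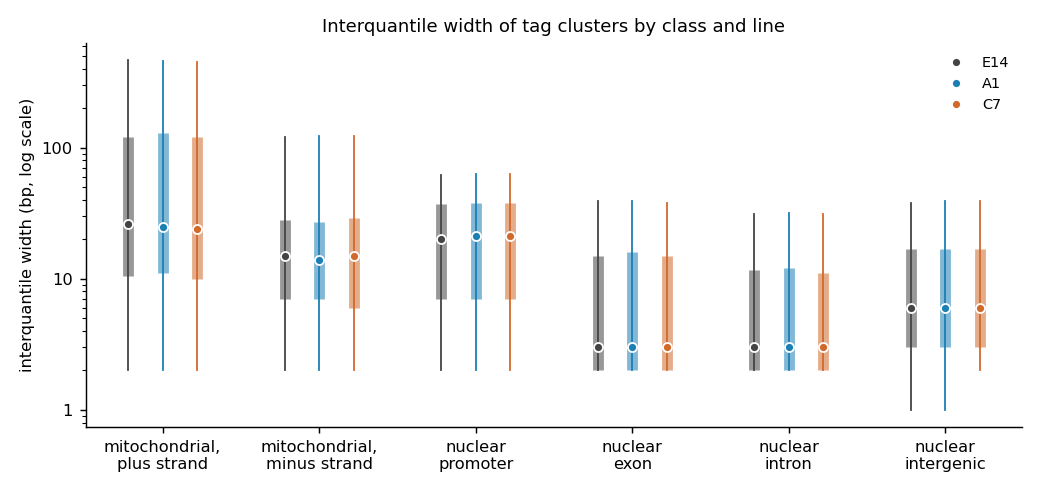
Interquantile width in bp (log scale) of mitochondrial clusters by strand and of nuclear clusters by annotation class in E14, A1 and C7. Dots are medians, thick bars run from the lower to the upper quartile and thin lines from the 5th to the 95th percentile, and the 95th percentile was highest for the plus-strand mitochondrial clusters.

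chrM held far more clusters for its length than nuclear chromosomes did. In E14 there were 7056 clusters per Mb of chrM, against 9.32 (chromosome 14) to 21.4 (chromosome 11) on the autosomes. Clusters covered 45.7% of the plus strand and 23.4% of the minus strand in E14.

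The bounds of all 115 E14 clusters were the same in A1 and C7, as they were for 98.5% of nuclear clusters present in all lines, so bounds in this set hardly vary by line. The 1 mitochondrial cluster whose presence differed lay on the minus strand from base 3257 to base 3258, opposite mt-Nd1, and was present in both clones and not in E14. Over all chromosomes 148 of 33005 clusters (0.448%) had that pattern. No mitochondrial cluster was present in E14 alone, a pattern that 76 of 32857 clusters (0.231%) had. Whether the cluster opposite mt-Nd1 varies between libraries of a line cannot be read from merged tracks.

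The dominant TSS was the same base in E14 and A1 in 98 of 115 mitochondrial clusters (85.2%, 77.6 to 90.6) and in 75.6% of nuclear clusters. In E14 and C7 it was the same in 96 (83.5%, 75.6 to 89.2) and in 78.2% of nuclear clusters. Between the clones it was the same in 97 of 116 clusters (83.6%). It moved in A1 in 17 clusters (14.8%), where 23.8% of all clusters moved, and in C7 in 19 (16.5%), where 21.1% did. In 8 clusters (6.96%) both clones had the same new base, near the 8.48% over all clusters.

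Moves were mostly short and on the minus strand. Of the 27 clusters whose dominant TSS moved in at least 1 clone, 20 lay on the minus strand (of 64) and 7 on the plus strand (of 51). It was the same in all lines in 76.5% of mitochondrial and 66.3% of nuclear clusters. On the minus strand it was that of E14 in 81.25% of clusters in A1 and 76.6% in C7. On the plus strand these shares were 90.2% and 92.2%, and over nuclear clusters 75.6% and 78.2%. The minus strand was thus near the nuclear shares, and the plus strand moved less often. Over the 27 clusters that moved, the median of the largest shift was 5 bp. The longest shifts were in a cluster opposite mt-Nd2, from base 4718 to base 4858, where the dominant TSS was at base 4780 in E14, 4828 in A1 and 4858 in C7. Opposite mt-Nd5 it moved from base 12705 in E14 to base 12648 in both clones. Opposite mt-Nd6, on the plus strand, it moved from base 14020 to base 14005 in both clones.

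By count, the widest clusters kept their dominant TSS more often than the narrowest ones, in small classes and without a test. Of the 21 with an E14 region over 100 bp, 2 moved (9.52%), and of the 14 with a region of 2 bp or less, 5 moved (35.7%). Nuclear clusters of the same widths moved in 23.1% and 31.4%, so the narrowest class was near the nuclear share. Between these widths, 26.0% of 50 mitochondrial clusters of 3 to 20 bp and 23.3% of 30 of 21 to 100 bp moved. The nuclear shares there were 37.3% and 30.8%.

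**Figure D5:**
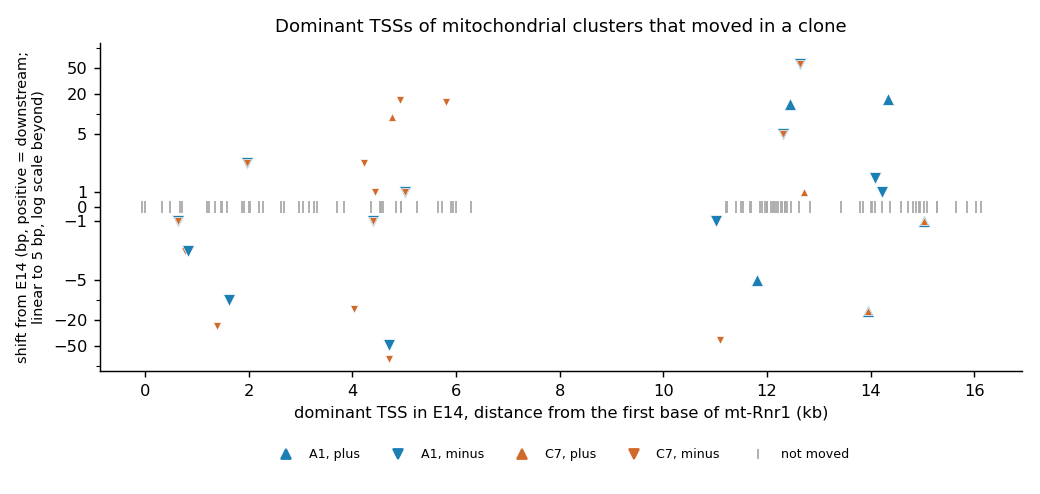
Shift in bp of the dominant TSS in A1 (blue) and C7 (orange) from E14, positive downstream (linear up to 5 bp, log scale beyond), by the position of the E14 dominant TSS in kb from the first base of mt-Rnr1; upward triangles are plus-strand and downward triangles minus-strand clusters. The 88 clusters that did not move are drawn as grey ticks at 0.

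The interquantile region was narrower in both clones than in E14 in 16 of the 115 clusters (13.9%), whereas this held for 4.01% of all clusters. It was wider in both clones in 9 (7.83%, against 12.5% of all). Of the 16, 9 were narrower by at most 5 bp in both clones and 3 by over 20 bp in a clone, the largest loss being 35 bp at mt-Nd6 in C7. Nuclear clusters with an E14 region of 21 to 100 bp were narrower in both clones in 7.83% and mitochondrial ones in 26.7% (8 of 30). Above 100 bp the shares were 21.8% and 19.0% (4 of 21). The region was the same in all 3 lines in 60 clusters (52.2%), and in 59.1% of nuclear clusters. The number of libraries merged was 3 in E14 and C7 and 2 in A1, and its part in the widths was not tested.

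The nuclear genes that serve mitochondrial expression had promoter clusters in the same lines. Of 30 genes for mitochondrial transcription, RNA processing and DNA maintenance, 28 had a promoter cluster in E14, A1 and C7 alike, and Mterf1a and Mterf1b had none in any line. The share of all nuclear genes with such a cluster is not given here. At Polrmt, on the minus strand of chromosome 10, all lines had base 79746573 as the dominant TSS, with a region of 21, 19 and 20 bp in E14, A1 and C7. At Tfam, which packages mitochondrial DNA and activates its transcription, it was at 71238070 on chromosome 10 with 57 bp in each. Tfb2m had it at 179546254 on chromosome 1 (27, 27 and 33 bp), and Tfb1m, an rRNA methyltransferase, at 3557755 on chromosome 17 (39, 38 and 39 bp). At Tefm, the elongation factor of POLRMT, it was at 80142143 on chromosome 11 in E14 and C7 and at 80142141 in A1. Among nuclear clusters of any kind found in all lines, 66.3% had the same dominant TSS in all 3. Of the 28 genes, 23 had the same dominant TSS in their widest promoter cluster in all lines, 2 differed by at most 2 bases and 3 by more. The largest difference was 20 bases at Elac2, from 64979068 on chromosome 11 in E14 and A1 to 64979088 in C7. Elac2, Mterf4 and Twnk, which differed by more than 2 bases, were named after their values had been seen.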

How the data were processed

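CAGE-seq was carried out on nuclear RNA from 3 E14, 2 A1 and 3 C7 libraries. The authors mapped reads to mm10 with STAR 2.4.2a, kept unique alignments over the full read, and clustered their 5' ends in CAGEr, with power-law normalisation, after merging the libraries of a line. The deposited values are positions: cluster bounds, the dominant TSS, and the interquantile region from quantile 0.1 to 0.9. All scores were 0, the depth behind a cluster is unknown and the minimum signal is not given in the sources used here.

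Clusters on chrM were assigned by dominant TSS and strand to the 37 genes of GENCODE M21 (GRCm38), with a window of 10 bp for gene starts and 500 bp for nuclear promoters. Clusters of the same strand sharing at least 1 bp counted as overlapping. Intervals are 95% Wilson intervals. Nuclear copies of at least 95% identity over at least 100 bp were found with BLAST 2.17.0, and promoter bases were read from RefSeq windows (GRCm38.p6). Python 3.11.15, NumPy 2.4.6, SciPy 1.17.1 and Matplotlib 3.10.9 were used, and functions were tested on simulated data. Genes named with values are the rRNAs, the mRNAs, tRNAs with a dominant TSS near their start, genes whose clusters differ between lines, and the first 7 nuclear genes of the list. Members and lists were chosen with earlier results of these data known, and the checks of TSS bases, width classes and clusters at nuclear copies were added after the positions had been seen.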

Additional observations from a re-analysis of the deposited data

How the results depend on the processing

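The alternatives were another position for a cluster, genes of either strand, other windows and overlap rules, and leaving out interquantile regions under 3 bp. Of 54 recomputed values, 45 stayed within the interval of the value reported or within 1.5 times the count reported. With genes of either strand, 95.7% of clusters were sense to a gene in E14, A1 and C7, since clusters opposite a gene then count. With any overlap of the whole cluster, 17 genes had a sense cluster in each line in place of 11. With a tolerance of 5 bp, the dominant TSS was the same in 94.8% of clusters in E14 and A1, 92.2% in E14 and C7 and 91.4% in A1 and C7. No paired analysis was possible because the deposited clusters merge the libraries of each line and carry no replicate number, and for the same reason no library could be left out. Depth per cluster is not in the positions, so a cluster that is missing in a line may lie below the signal needed to call it.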
